A study of Mus musculus with 6 samples.

Results

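The 9 genes described here encode matrix-degrading proteinases, their tissue inhibitors and the activators of plasminogen, and were taken by symbol as a fixed list: Timp1, Timp2 and Timp3 (inhibitors), Mmp2, Mmp7, Mmp9 and Mmp14 (metalloproteinases), and Plau and Plat (plasminogen activators). They are 9 of 56923 gene identifiers counted in the kidneys, and all 9 were among the 18273 genes that passed the filter on low counts. RNA sequencing of poly-A RNA was done on whole kidneys of male mice aged 10 weeks, 3 Pkd1 KO and 3 control kidneys. The Pkd1 KO mice were Pkd1flox/flox.Pax8rtTA.Tet-O-Cre, in which the Pax8 promoter drives a doxycycline-dependent activator in the tubule, and the activator in turn switches on Cre. The controls were Pkd1flox/flox.Tet-O-Cre and lacked Pax8rtTA, and they too carried floxed Pkd1 and the Cre transgene. Both groups drank 2 mg/ml doxycycline in water with 5% sucrose for 14 days, between postnatal days 28 and 42. Loss of Pkd1, the gene of polycystin-1, leads to cystic kidneys, and the design asked which transcripts differ between such kidneys and non-cystic ones. Whole kidneys also hold vessels, glomeruli, interstitium and immune cells, in which Cre was not directed. The position of the flox sites in Pkd1 was not stated in the labels.

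Matrix metalloproteinases are zinc endopeptidases that are mostly made as inactive precursors and cleave collagens, laminins, proteoglycans and cell-surface proteins. Tissue inhibitors of metalloproteinases (TIMPs) bind the active site of the mature enzymes. The plasminogen activators turn plasminogen into plasmin, which degrades fibrin and can activate metalloproteinase precursors. In the kidney these enzymes take part in the turnover of tubular basement membrane and interstitial matrix, and Timp1 and Mmp7 are widely used transcripts of tubular injury and fibrosis.

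The libraries held 51966474 to 62983791 gene counts in Pkd1 KO kidneys and 45020173 to 55548316 in control kidneys. Pkd1 itself had 8.77, 9 and 10.0 CPM (gene counts scaled to library size) in Pkd1 KO kidneys, against 30.0, 46.4 and 23.6 CPM in control kidneys. Its log2 fold change was −1.85 ± 0.24 (SE, adjusted p = 0.00234, edgeR's quasi-likelihood test). With offsets for gene GC content and length, which remove trends of the fold change on these properties in each library, the Pkd1 change was −0.34 (adjusted p = 0.0644). Summed markers of proximal tubule, the most abundant tissue of the kidney cortex, were 46581.7 to 54993.3 CPM in Pkd1 KO and 31215.3 to 37505.7 CPM in control kidneys, with 2 of 10 called higher and 6 lower. Most of that sum was 1 gene, Kap, at 39679.1 to 47516.7 CPM in Pkd1 KO and 13976.5 to 26580.9 CPM in control kidneys. The other 9 summed to 6902.6 to 8188.9 CPM in Pkd1 KO and 10924.7 to 17238.9 CPM in control kidneys, and with the offsets 6 of the 10 were lower and Kap was not called (0.22, adjusted p = 0.405, edgeR). The run names carry 1 tag for the 3 Pkd1 KO libraries and another for the 3 controls. The tag was taken as a sequencing project, which the sample labels do not state. Genotype and this tag cannot be told apart in any result below. The labels do not say that the samples of a group were separate animals, so the p-values measure the spread between these samples, which may be technical.

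Of the 9 genes, 2 were higher in Pkd1 KO kidneys (Timp1 and Mmp7) and 1 was lower (Mmp14) at an adjusted p under 0.05, and the other 6 were not called. That is 33.3% of the list, while 46.9% of all tested genes were called. With the offsets for GC content and length, Timp1 and Mmp7 were again called higher and none of the 9 was lower, also at an unadjusted p under 0.05, against 34.5% of all genes called in that fit. DESeq2, without offsets, called 2 of the 9 higher and 2 lower, against 38.8% of all genes. The values of the groups did not overlap for 4 of the 9 genes, with Pkd1 KO above for Timp1 and Mmp7 and below for Timp2 and Mmp14, while 61.2% of all tested genes were apart in this way, 31.2% with Pkd1 KO above and 30% with it below. The median log2 fold change of the 9 was −0.13, against 0.03 over all tested genes. In whole-kidney RNA, a change in the number of cells of a type and a change in RNA per cell cannot be told apart.

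**Figure D1:**
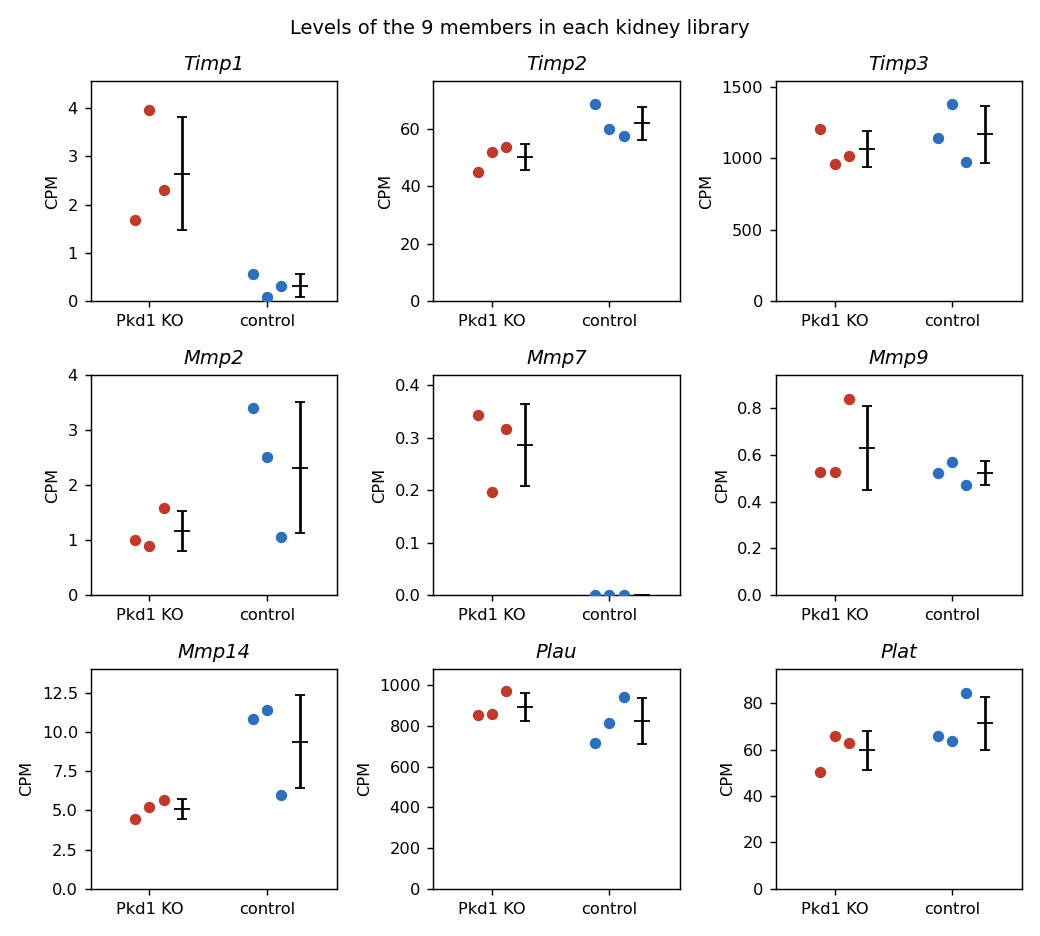
CPM of each of the 9 genes in every library (points, linear axes from 0; horizontal lines and error bars are group means ± SD), with Pkd1 KO left of control. Timp1 and Mmp7 lie higher and Mmp14 lies lower in the Pkd1 KO kidneys.

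Timp1 encodes a secreted inhibitor of most metalloproteinases that is induced in many injured tissues. Timp1 had 1.68, 3.95 and 2.30 CPM in Pkd1 KO kidneys, against 0.563, 0.0865 and 0.314 CPM in control kidneys. Each Pkd1 KO value lay above each control value, and control 2 was the lowest of the 6. These values rest on 83, 241 and 146 reads in Pkd1 KO and 29, 5 and 14 reads in control kidneys. The means were 2.64 ± 1.17 CPM in Pkd1 KO and 0.321 ± 0.238 CPM in control kidneys (SD, n = 3 each). The log2 fold change was 3.05 ± 0.56 (SE, 95% interval 1.78 to 4.33, adjusted p = 0.00389, edgeR), which is 8.3-fold. With the offsets it was 2.53 (adjusted p = 0.00702, edgeR).

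Mmp7 encodes matrilysin, a small secreted metalloproteinase of epithelial cells that cleaves E-cadherin and matrix proteins. Mmp7 had 17, 12 and 20 reads in Pkd1 KO kidneys, which is 0.344, 0.197 and 0.316 CPM, against 0 reads in each of the 3 control kidneys. It was thus detected in every Pkd1 KO library and in no control library, at a low level. Set against the 3 counts over the control group that a count of 0 allows, the Pkd1 KO level was at least 14.5-fold higher (0.282 CPM pooled over Pkd1 KO, against under 0.0195 CPM over control kidneys). That bound leaves out the spread between libraries and counting error in the Pkd1 KO reads. The adjusted p was 0.00347 (edgeR), and 0.00691 with the offsets. Mmp7 passed the count filter only through its Pkd1 KO reads. With 0 control reads it could only come out higher, so the call adds no separate support to the read counts. When Pkd1 KO 3 was left out, Mmp7 no longer passed the count filter and was not tested. In an older annotation of the mouse genome (GENCODE M21), 123 of the 1068 exonic bases of Mmp7 overlap AV064505 on the opposite strand, and the counts ignore strand. Counted by strand and summed, Mmp7 had 19, 17 and 28 reads in Pkd1 KO and 0, 0 and 1 in control kidneys. Such sums can also hold reads of the gene on the opposite strand.

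The stretches upstream of the transcription start of these called-higher genes are shown because both were called higher at very low control levels. Each is the 250 bases before a start in RefSeq (GRCm38.p6), on the plus strand, 5′ to 3′. Capitals mark the AP-1 motif TGACTCA, the GC box GGGCGG and the TATA box TATAAA on either strand.
Timp1, chrX:20869916-20870165: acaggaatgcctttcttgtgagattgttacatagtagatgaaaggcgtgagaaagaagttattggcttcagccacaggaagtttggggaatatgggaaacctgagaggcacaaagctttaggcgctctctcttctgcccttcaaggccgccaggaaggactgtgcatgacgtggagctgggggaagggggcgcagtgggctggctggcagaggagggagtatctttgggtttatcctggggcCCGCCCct
Mmp7, chr9:7691840-7692089: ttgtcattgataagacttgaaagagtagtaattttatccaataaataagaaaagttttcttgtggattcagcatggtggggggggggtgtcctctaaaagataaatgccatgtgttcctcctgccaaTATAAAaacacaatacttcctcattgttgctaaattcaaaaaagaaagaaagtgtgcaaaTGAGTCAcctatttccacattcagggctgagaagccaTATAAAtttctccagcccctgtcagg
The Mmp7 window held the AP-1 motif in its reverse form, TGAGTCA, from 63 to 57 bases before the start, and TATA boxes from 123 to 118 and from 26 to 21 bases before it. Its GC content was 38%, with 0 CG dinucleotides. The Timp1 window had a GC content of 54.4% and held 1 GC box, on the minus strand, from 8 to 3 bases before the start, and no AP-1 motif or TATA box of these letters. Of all 32851 mouse windows of this length, 4.46% held the AP-1 motif, 32.7% the GC box and 12.4% the TATA box. The TCF/LEF motif CTTTGA, also searched, lay in 13.8% of all windows and in neither of the pair shown. It was found in the second RefSeq window of Mmp7, from 246 to 241 bases before that start. This second window, chr9:7692091-7692340, follows the first, so the match lies downstream of the first Mmp7 start. Of the 9 genes, 5 had a window in the RefSeq table, and those of Timp2, Timp3 and Mmp14 each held a GC box and none of the other motifs. The motifs searched do not overlap one another in the windows shown, and a match describes letters only.

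Timp2 inhibits metalloproteinases and, together with Mmp14, also takes part in the activation of the Mmp2 precursor at the cell surface. Timp2 had 45.0, 52.1 and 53.6 CPM in Pkd1 KO kidneys, against 68.5, 59.8 and 57.4 CPM in control kidneys. The groups did not overlap, with Pkd1 KO below, but the nearest values lay close together. The log2 fold change was −0.30 ± 0.14 (SE, 95% interval −0.62 to 0.01, adjusted p = 0.104, edgeR), so Timp2 did not pass the test. Without control 3 it did (−0.40, adjusted p = 0.0319, edgeR, in a fit that called 54.5% of all genes), and with the offsets the fold change was 0.02 (adjusted p = 0.9, edgeR).

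Timp3 encodes the TIMP that binds to extracellular matrix and also inhibits ADAM and ADAMTS proteases. Timp3 had 1203.9, 962.4 and 1018.4 CPM in Pkd1 KO kidneys, against 1144, 1376.7 and 975.4 CPM in control kidneys. The groups overlapped, and the highest and the second lowest of the 6 values were both controls. Pkd1 KO and control differed by a log2 fold change of −0.13 ± 0.18 (SE, 95% interval −0.55 to 0.28, adjusted p = 0.566, edgeR), and 0.16 with the offsets (adjusted p = 0.425). Timp3 shares 1733 exonic bases, 21.3% of its length in GENCODE M21, with Syn3 on the opposite strand. Reads in such bases are left out of counts that ignore strand. The summed strand columns count them for Timp3 whichever gene they came from, since the reads split almost evenly by strand. Outside the shared bases, Syn3 had 359, 354 and 327 reads in Pkd1 KO and 437, 400 and 371 reads in control kidneys. Which gene the reads in the shared bases came from was not tested. The counts left out 45.3%, 50.1% and 45.0% of the reads in the summed strand columns of Timp3 in Pkd1 KO kidneys. In control kidneys they left out 38.7%, 38.7% and 38.6%. With the summed columns the log2 fold change was 0.09 (adjusted p = 0.705, edgeR), so no direction is given for Timp3.

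Mmp2 encodes gelatinase A, which cleaves type IV collagen and denatured collagens and is made mainly by mesenchymal cells. Mmp2 had 1.01, 0.902 and 1.59 CPM in Pkd1 KO kidneys, against 3.40, 2.51 and 1.05 CPM in control kidneys. Controls 1 and 2 lay above every Pkd1 KO kidney, and control 3 lay among them. On the log2 scale the fold change was −0.99 ± 0.42 (SE, 95% interval −1.93 to −0.04, adjusted p = 0.0789, edgeR), and −0.63 with the offsets (adjusted p = 0.225). Mmp2 was called lower without control 3 (−1.38, adjusted p = 0.00413, edgeR) and by DESeq2 (−1.03, adjusted p = 0.042). The share of its strand-column reads that the counts left out was 50.5%, 63.1% and 42% in Pkd1 KO kidneys and 24.6%, 28.9% and 41.2% in control kidneys. GENCODE M21 lists no gene that overlaps Mmp2. With the summed strand columns the log2 fold change was −0.42 (adjusted p = 0.299, edgeR).

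Mmp9 encodes gelatinase B, which neutrophils and macrophages store or secrete and which epithelial cells can also make. Mmp9 had 0.526, 0.525 and 0.837 CPM in Pkd1 KO kidneys, against 0.524, 0.571 and 0.471 CPM in control kidneys. The groups overlapped, and Pkd1 KO 3 alone stood above the rest. The log2 fold change was 0.27 ± 0.33 (SE, 95% interval −0.48 to 1.02, adjusted p = 0.523, edgeR), and 0.65 with the offsets (adjusted p = 0.152). At 21 to 53 reads a library, a doubling lies just inside that interval.

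Mmp14 encodes a membrane-anchored metalloproteinase that cleaves fibrillar collagen around cells and activates the Mmp2 precursor. Mmp14 had 4.43, 5.20 and 5.68 CPM in Pkd1 KO kidneys, against 10.8, 11.4 and 5.97 CPM in control kidneys. Each Pkd1 KO value lay below each control value, though control 3 was close to the Pkd1 KO kidneys. The means were 5.10 ± 0.633 CPM in Pkd1 KO and 9.37 ± 2.97 CPM in control kidneys (SD, n = 3 each). The log2 fold change was −0.88 ± 0.25 (SE, 95% interval −1.45 to −0.31, adjusted p = 0.0201, edgeR). The call was lost with the offsets (−0.17, adjusted p = 0.509, edgeR). It was also lost without control 1 (adjusted p = 0.073), without Pkd1 KO 1 (0.079) and without Pkd1 KO 2 (0.0667, all edgeR).

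Plau encodes urokinase, the plasminogen activator that tubule cells secrete into urine. Plau had 851.7, 856 and 969 CPM in Pkd1 KO kidneys, against 713.8, 812.6 and 939.4 CPM in control kidneys. The groups overlapped, and the lowest 2 values were controls. Plau had a log2 fold change of 0.12 ± 0.16 (SE, 95% interval −0.25 to 0.49, adjusted p = 0.572, edgeR). It was −0.24 with the offsets (adjusted p = 0.22, edgeR), so the direction is not settled.

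Plat encodes tissue plasminogen activator, a product mainly of endothelium and, in the kidney, of glomerular and tubular cells. Plat had 50.2, 65.9 and 62.8 CPM in Pkd1 KO kidneys, against 65.7, 63.8 and 84.5 CPM in control kidneys. The groups overlapped, with the lowest value in Pkd1 KO 1 and the highest in control 3. Plat had a log2 fold change of −0.26 ± 0.17 (SE, 95% interval −0.64 to 0.12, adjusted p = 0.228, edgeR), and −0.24 with the offsets (adjusted p = 0.254).

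**Figure D2:**
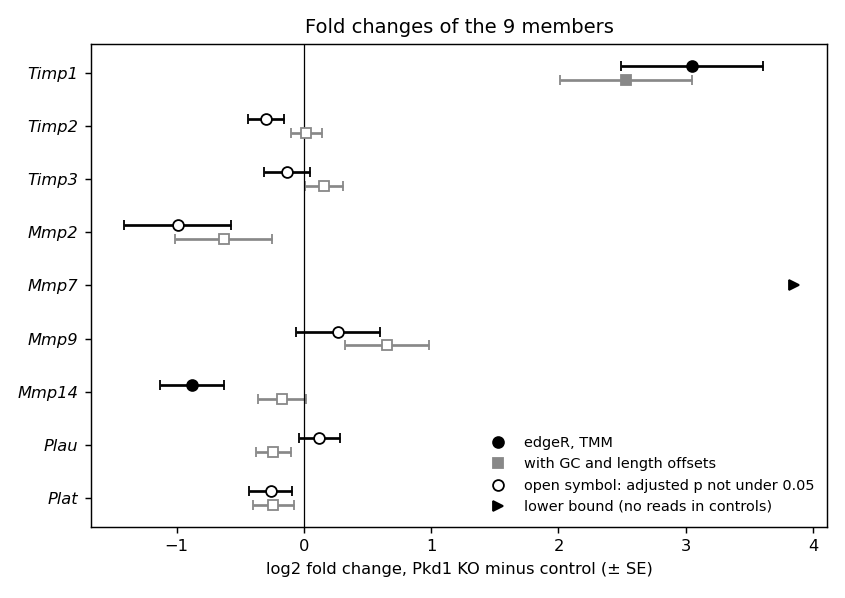
Log2 fold changes of Pkd1 KO over control (x axis, ± SE) from edgeR with TMM scaling (circles) and with GC and length offsets (squares); filled symbols passed an adjusted p of 0.05. Timp1 stands at 3.05 and 2.53, Mmp7 is drawn at its lower bound of 3.85, and Mmp14 is filled at −0.88 and open at −0.17.

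Levels of different genes were compared as CPM per 1000 bases of exon. In Pkd1 KO kidneys the order was Plau (377 ± 28.1), Timp3 (130.3 ± 15.5), Timp2 (12.9 ± 1.18), Plat (9.55 ± 1.34) and Timp1 (2.98 ± 1.32, SD, n = 3 each). Mmp14 (0.856 ± 0.106), Mmp2 (0.347 ± 0.11), Mmp7 (0.267 ± 0.073) and Mmp9 (0.178 ± 0.0508) followed. In control kidneys the first 4 places were the same, with Plau at 347.2 ± 47.8, Timp3 at 143.1 ± 24.7, Timp2 at 15.9 ± 1.49 and Plat at 11.4 ± 1.84 CPM per 1000 bases. Then came Mmp14 (1.57 ± 0.498), Mmp2 (0.688 ± 0.351), Timp1 (0.362 ± 0.269), Mmp9 (0.148 ± 0.0141) and Mmp7 at 0. Timp1 stood at place 5 in Pkd1 KO and at place 7 in control kidneys. Neighbours whose libraries overlapped were Mmp2 with Mmp7 and Mmp7 with Mmp9 in Pkd1 KO kidneys. In control kidneys they were Mmp14 with Mmp2, Mmp2 with Timp1, and Timp1 with Mmp9. The levels of Timp3 and Mmp2 may be low on this scale, since reads were left out of their counts while the full exon length was used. The summed strand columns may be too high in turn, since they can hold reads of genes on the opposite strand. With the summed strand columns Timp3 stood at 245 ± 22.6 in Pkd1 KO and 233.4 ± 40.5 in control kidneys, and Mmp2 at 0.715 ± 0.105 in Pkd1 KO and 0.972 ± 0.407 in control kidneys (SD, n = 3 each), and all 9 genes kept their places. The order depends on the length used. With the median transcript length in place of all exons, only 1 of 9 places in Pkd1 KO and 3 of 9 in control kidneys stayed. Timp3 then stood above Plau in both groups, and Timp1 stood below Mmp14 in both, at 3.08 against 6.55 in Pkd1 KO and 0.374 against 12 in control kidneys.

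**Figure D3:**
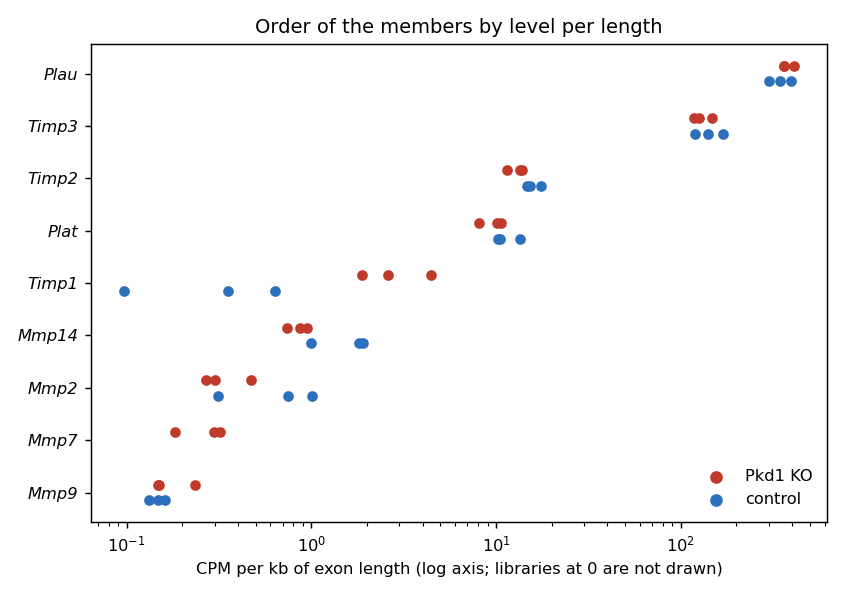
CPM per 1000 exonic bases of the 9 genes on a log axis, 1 point per library, with Pkd1 KO above control for each gene and libraries at 0 not drawn. Plau and Timp3 lead in both groups, and every Pkd1 KO value of Timp1 lies above those of Mmp14, while every control value of Timp1 lies below those of Mmp14; with the median transcript length Timp1 lies below Mmp14 in both groups.

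Per length, Timp3 made up 91.7%, 86.9% and 88.4% of the summed level of the 3 TIMPs in Pkd1 KO kidneys and 88.5%, 91.6% and 88.8% in control kidneys. Timp1 made up 1.17%, 3.27% and 1.84% of it in Pkd1 KO and 0.4%, 0.0528% and 0.262% in control kidneys. The TIMP transcripts were thus mostly Timp3 in every library, and the share of Timp1 was small in both groups without overlap between them. With the median transcript length, the Timp1 share was 0.316%, 0.913% and 0.506% in Pkd1 KO and 0.11%, 0.0142% and 0.0719% in control kidneys, again without overlap. Of the 4 metalloproteinases, Mmp14 made up 49.1%, 59.2% and 48.7% in Pkd1 KO and 61%, 67.9% and 69.2% in control kidneys. Mmp7, listed at 0 in controls, made up 21.3%, 12.5% and 15.1% of the 4 in Pkd1 KO kidneys. These shares depend on the length used. With the median transcript length Mmp7 made up 4.19%, 2.19% and 2.89% in Pkd1 KO kidneys, and Mmp14 made up 74.1%, 79.3% and 71.3% in Pkd1 KO and 77.4%, 82% and 82.4% in control kidneys, with overlap between the groups. The ratio of Plau to Plat per length was 44.8, 34.2 and 40.7 in Pkd1 KO and 28.7, 33.6 and 29.3 in control kidneys. With the median transcript length it was 22.7, 17.3 and 20.6 in Pkd1 KO and 14.5, 17 and 14.8 in control kidneys. By both lengths the lowest Pkd1 KO ratio was just above the highest control ratio. The choice of length could not change this, since it scales the ratio of every library alike. None of these shares and ratios was tested.

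For each gene, the 1 protein-coding gene with the most similar profile was found by the root mean square difference of centred log2 CPM over the 6 libraries. Timp1 was nearest to Cxcl1, a neutrophil-attracting chemokine, at a difference of 0.148. Mmp7 was nearest to Trdn, at 0.332, the least close of the matches. Mmp14 was nearest to Aoc3 at 0.058. The others were Lix1l for Timp2 (0.021), Mios for Timp3 (0.039), Gfod1 for Mmp2 (0.23), Gadd45a for Mmp9 (0.093), Rac3 for Plau (0.054) and Dusp10 for Plat (0.08). With 6 libraries in 2 groups, these differences describe the libraries only.

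Of 19 other matrix metalloproteinases, 11 were tested, 3 of them were higher and 2 lower in Pkd1 KO kidneys, where 22.7% of all genes were higher and 24.2% lower. Mmp12, the macrophage elastase, had 7.08, 7.22 and 6.27 CPM in Pkd1 KO kidneys, against 1.38, 1.14 and 2.29 CPM in control kidneys. Its log2 fold change was 2.10 ± 0.27 (SE, adjusted p = 0.00234, edgeR). Mmp13, a collagenase, had 8.29, 9.90 and 7.91 CPM in Pkd1 KO kidneys, against 3.15, 2.13 and 3.66 CPM in control kidneys. It rose by a log2 fold change of 1.55 ± 0.23 (adjusted p = 0.00259, edgeR). With the offsets Mmp12 stood at 1.79 and Mmp13 at 0.84 (adjusted p = 0.00192 and 0.00661, edgeR). The other one called higher was Mmp3, stromelysin-1, a gene of low level that the naming rule did not cover and that was chosen after its values were seen. Mmp3 had 0.970, 2.10 and 1.96 CPM in Pkd1 KO kidneys, against 0.311, 0.225 and 0.449 CPM in control kidneys. The membrane-anchored Mmp15 was lower, at a log2 fold change of −1.70 ± 0.23 (adjusted p = 0.00234), as was Mmp28 (−1.16 ± 0.23, adjusted p = 0.00458, edgeR). With the offsets Mmp15 stayed called (−0.66, adjusted p = 0.0154) and Mmp28 did not (−0.49, adjusted p = 0.0753, edgeR). In that fit the list had 4 higher and 1 lower, where 17.1% of all genes were higher and 17.3% lower.

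Of 12 other inhibitors and binding partners of metalloproteinases, 4 were higher and 4 lower, where 22.7% of all genes were higher and 24.2% lower. Lcn2, whose protein forms a complex with Mmp9, had 4.81, 13.2 and 12.7 CPM in Pkd1 KO kidneys, against 1.73, 1.95 and 2.42 CPM in control kidneys (log2 fold change 2.34 ± 0.37, adjusted p = 0.0028, edgeR). Tfpi2, a serine protease inhibitor of the matrix, rose by 1.80 ± 0.27 (adjusted p = 0.00268), and Cd44, a hyaluronan receptor that docks Mmp9, by 1.67 ± 0.25 (adjusted p = 0.00262, edgeR). With the offsets Lcn2 stood at 2.44, Tfpi2 at 0.87 and Cd44 at 1.64 (adjusted p = 0.0025, 0.00762 and 0.0025, edgeR). Reck, a membrane-anchored inhibitor of metalloproteinases, was lower (−0.76 ± 0.17, adjusted p = 0.00735, edgeR). Lrp1, an endocytic receptor that clears proteinase complexes, was lower at −1.48 ± 0.33 (adjusted p = 0.00718) and at 0.18 with the offsets (adjusted p = 0.256, edgeR). With the offsets the list had 4 higher and 1 lower, where 17.1% of all genes were higher and 17.3% lower. Lcn2 and Cd44 are also on the list of injured-tubule markers.

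Of 16 other genes of the plasminogen system, 13 were tested, with 2 higher and 2 lower, where 22.7% of all genes were higher and 24.2% lower. S100a10, part of a plasminogen receptor, had 186.2, 261.2 and 216.5 CPM in Pkd1 KO kidneys, against 61.2, 48.0 and 86.1 CPM in control kidneys. Its log2 fold change was 1.76 ± 0.23 (adjusted p = 0.00234, edgeR). Plgrkt, another plasminogen receptor, rose by 0.98 ± 0.16 (adjusted p = 0.0028, edgeR). With the offsets S100a10 stood at 1.30 and Plgrkt at 0.57 (adjusted p = 0.00178 and 0.00599, edgeR). Hpn, the membrane serine protease hepsin, was lower at −1.11 ± 0.16 (adjusted p = 0.00259), and Serpine2, an inhibitor of serine proteases, at −0.79 ± 0.15 (adjusted p = 0.00455, edgeR). Hpn did not keep its call with the offsets (−0.32, adjusted p = 0.114, edgeR). The urokinase receptor Plaur (0.25 ± 0.25, adjusted p = 0.431) and plasminogen itself, Plg (−0.90 ± 0.62, adjusted p = 0.255, edgeR), were not called. Both were named after their values were seen.

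Among 15 tested ADAMTS proteases, which cleave proteoglycans and procollagens, 2 were higher and 3 lower. The counts in this paragraph stand beside 22.7% of all genes higher and 24.2% lower, and 17.1% higher and 17.3% lower with the offsets. Adamts6 rose by 1.11 ± 0.23 (adjusted p = 0.00566) and Adamts5, an aggrecanase, by 0.84 ± 0.16 (adjusted p = 0.00456, edgeR). Adamts15, Adamts7 and Adamts9 were lower, by −0.86 to −0.66, and none of these 3 kept its call or its sign with the offsets, where the list had 4 higher and 0 lower (0 lower also at an unadjusted p under 0.05, edgeR; 3 lower by DESeq2 without offsets). Of 4 tested astacin and meprin proteases, Mep1b was higher (0.67 ± 0.21, adjusted p = 0.0305), and Mep1a (−0.60 ± 0.16, adjusted p = 0.0139) and Tll1 (−0.76 ± 0.24, adjusted p = 0.0301, edgeR) were lower. Mep1a and Mep1b encode the meprin subunits of the proximal tubule brush border. With the offsets Mep1a kept its call (−0.72, adjusted p = 0.00691), and Mep1b (0.25, adjusted p = 0.252) and Tll1 (−0.48, adjusted p = 0.128, edgeR) did not. Without Pkd1 KO 3 none of the list was called, and 1 was higher and 2 lower at an unadjusted p under 0.05 (edgeR). Of 9 tested membrane ADAM proteases, 1 was higher and 2 were lower. The lower ones were Adam15 (−0.93 ± 0.13) and Adam9 (−0.47 ± 0.14), and the higher one was Adam8, a gene of low level chosen after its values were seen. With the offsets Adam15 was not called (0.03, adjusted p = 0.865), Adam9 was (−0.64, adjusted p = 0.00825, edgeR), and the list had 2 higher and 2 lower.

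The substrate lists held 21 basement membrane and 18 interstitial matrix genes. Their counts stand beside 22.7% of all genes higher and 24.2% lower, and 17.1% higher and 17.3% lower with the offsets. Of the basement membrane genes, 18 were lower and 0 higher in Pkd1 KO kidneys by edgeR (19 lower and 0 higher at an unadjusted p under 0.05, and the same by DESeq2), with a median log2 fold change of −1.16. With the offsets, 2 were lower and 2 higher. Leaving out 1 Pkd1 KO library gave 7 lower without Pkd1 KO 1, 9 without Pkd1 KO 2 and 11 without Pkd1 KO 3, where 17.2%, 14.6% and 16.5% of all genes were lower. At an unadjusted p under 0.05 these fits had 17, 19 and 18 lower (edgeR). Lamb2, a laminin chain, had 15.5, 16.7 and 17.5 CPM in Pkd1 KO kidneys, against 46.8, 77.0 and 37.4 CPM in control kidneys (log2 fold change −1.69 ± 0.25, and −0.61 with the offsets, adjusted p = 0.00259 and 0.00812, edgeR). Of the interstitial matrix genes, 5 were higher and 7 lower, and 8 were higher and 1 lower with the offsets. Col3a1, a fibrillar collagen chain, had 52.3, 98.6 and 78.9 CPM in Pkd1 KO kidneys, against 46.0, 38.7 and 32.9 CPM in control kidneys (log2 fold change 0.97 ± 0.23, and 1.80 with the offsets, adjusted p = 0.0101 and 0.00191, edgeR). Other fibrillar collagen chains went the other way without offsets. Col5a2 (−1.22), Col5a1 (−0.92) and Col1a2 (−0.51) were called lower, and Col1a1 (−0.41) was not called. With the offsets Col1a2 (0.68) and Col1a1 (0.71) were called higher, and Col5a2 (−0.56) and Col5a1 (0.28) were not called. Sparc, a collagen-binding matrix protein, rose by 1.13 ± 0.20 (adjusted p = 0.00355), and Bgn, a small proteoglycan, was lower at −0.96 ± 0.16 (adjusted p = 0.00307, edgeR). Over all lists, 18 of 103 tested genes were higher and 40 lower, where 22.7% of all genes were higher and 24.2% lower. With the offsets 28 were higher and 9 lower, where 17.1% of all genes were higher and 17.3% lower.

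**Figure D4:**
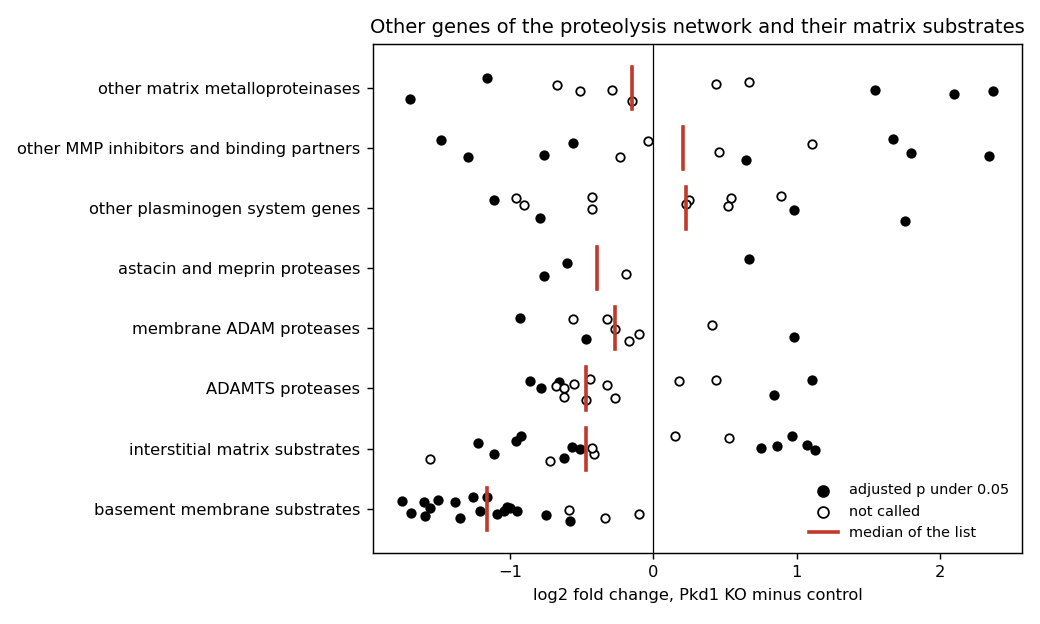
Log2 fold changes of Pkd1 KO over control (x axis, edgeR without offsets) of the tested genes in each list of related genes (rows); filled points passed an adjusted p of 0.05 and red lines are list medians. All basement membrane genes lie left of 0, 18 of 21 filled, with a median of −1.16.

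Markers of several other cell types also differed between the groups, beside the 22.7% of all genes that were higher and 24.2% that were lower. Of 5 thick ascending limb markers, 1 was higher and 2 lower (summed 2030.8 to 2549.3 CPM in Pkd1 KO and 3760.9 to 4655.4 CPM in control kidneys). Of 5 distal convoluted tubule markers, 4 were lower (423.5 to 516.7 CPM in Pkd1 KO and 1093.5 to 1367.8 CPM in control kidneys). Of 9 tested collecting duct markers, 1 was higher and 6 lower (601.8 to 697 CPM in Pkd1 KO and 808.1 to 953.1 CPM in control kidneys). Of 12 macrophage markers, 8 were higher and 1 lower, and their summed level was 223.5 to 365.6 CPM in Pkd1 KO and 122 to 161.3 CPM in control kidneys. The largest part of the Pkd1 KO sum was Lyz2, at 97.5, 188.6 and 164.7 CPM. In control kidneys Lyz2 had 26.4, 12.7 and 30.2 CPM. Without Lyz2 the sums of the groups overlapped. The macrophage marker called lower was Csf1r (−1.01, adjusted p = 0.00297, and −0.33 with the offsets, adjusted p = 0.0438, edgeR). Adgre1, Cd68 and Itgam were not called. Of 10 injured-tubule markers, 6 were higher and 2 lower (summed 883 to 1360.6 CPM in Pkd1 KO and 832.3 to 1011.1 CPM in control kidneys). Havcr1, the kidney injury molecule, had 22.7, 86.5 and 47.0 CPM in Pkd1 KO kidneys (mean 52.1), against 1.05, 9.37 and 2.27 CPM in control kidneys (mean 4.23). The injured-tubule markers called lower were Clu (−1.51, adjusted p = 0.00178) and Krt8 (−0.75, adjusted p = 0.004, edgeR). Both stayed lower with the offsets (−1.12 and −0.66). Of 10 fibroblast and pericyte markers, 4 were higher and 3 lower, with overlapping summed levels of 275.7 to 387.5 CPM in Pkd1 KO and 282 to 338.3 CPM in control kidneys. Of 10 endothelial markers, 2 were higher and 8 lower (486.4 to 507.7 CPM in Pkd1 KO and 693.5 to 764.8 CPM in control kidneys). Of 8 podocyte markers, 7 were lower (179.9 to 210.1 CPM in Pkd1 KO and 237.3 to 424.8 CPM in control kidneys). Of 8 T and NK cell markers, 4 were higher (11.1 to 15.5 CPM in Pkd1 KO and 5.05 to 7.45 CPM in control kidneys), as were 3 of 6 B and plasma cell markers (26.9 to 99.4 CPM in Pkd1 KO and 13.4 to 16 CPM in control kidneys). Of 10 neutrophil markers, 4 were tested and 2 were higher, with sums of only 1.86 to 3.22 CPM in Pkd1 KO and 1.75 to 2.02 CPM in control kidneys, and Ly6g and Mpo were at 0 in every library. With the offsets, against 17.1% of all genes higher and 17.3% lower, 7 macrophage markers were higher and 1 lower, 4 injured-tubule markers higher and 2 lower, and 3 fibroblast and pericyte markers higher and 1 lower. In that fit 1 endothelial marker was higher and 3 were lower, 1 podocyte marker was lower, 2 T and NK cell and 2 B and plasma cell markers were higher, and neither of the neutrophil markers kept its call. Also in that fit, 1 thick ascending limb marker was higher and 3 lower, 5 distal convoluted tubule markers were lower, and 6 collecting duct markers were lower. Of 4 tested adipocyte markers, 1 was higher without the offsets and 0 with them, and their summed levels overlapped between the groups. The part of cell makeup in the values of Timp1, Mmp7, Mmp14, Mmp12 and the other genes was not tested.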

How the data were processed

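Poly-A RNA of 6 whole kidneys was sequenced, and groups and numbers were taken from the sample titles. The authors deposited raw counts per gene, without normalization, in 7 tables that hold 1 sequencing run each. Per the submitters' processing notes, FastQC 0.11.8, cutadapt 4.0, STAR 2.6.1e and the build GRCm39 were used. Their gene annotation is not stated. Counts that ignore strand were used, since reads split almost evenly by strand (49.1% to 50% in the first strand column), and a read in exons of opposite-strand neighbours is then not counted. The 4 lines per table that name no gene (22.9% to 26.3% of reads) stayed out. The runs of control 1 (39142952 and 11313677 gene counts) were summed as 1 replicate. STAR counts only reads that map to 1 place.

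Pkd1 KO was compared with control by edgeR's quasi-likelihood test (edgeR 4.0.16, R 4.3.3) with filterByExpr, TMM and Benjamini-Hochberg adjustment over 18273 genes at 0.05. The common biological coefficient of variation was 21.4%. An SE is the size of the log2 fold change over the square root of F. CPM uses TMM library sizes. Intervals at 95% cover the spread between libraries and counting error only. The floor of 3 counts covers counting error in the pooled control reads only. Offsets were robust loess surfaces (span 0.3) of each library's centred log2 CPM on GC content and log2 exon length, for 17785 genes (97.3%), and they would also remove a true change shared by long or GC-rich genes. Symbols, lengths and GC content came from GENCODE M21, an older build joined by identifier (52073 of 56923 matched), with no coordinates printed. Promoter windows are RefSeq's on GRCm38.p6. Scripts were tested on simulated data.

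The members and lists were chosen with earlier results of these data known. Named were all members, Pkd1 and the nearest gene to each member. The rule also took up to 3 called genes per list and direction whose mean log2 CPM was not below 0. Mmp3, Adam8, Plaur, Plg, Col5a1, Col1a1, Col1a2 and Syn3 were added after their values were seen. So were the markers Havcr1, Clu, Krt8, Kap, Lyz2, Csf1r, Adgre1, Cd68 and Itgam. Fewer genes are named than the rule took. Alternatives were DESeq2 1.42.0, other scalings, no filter, a replicate block, offsets, the larger run of control 1 alone, leaving out each library and, chosen after seeing the data, the sum of the strand columns.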

Additional observations from a re-analysis of the deposited data

How the results depend on the processing

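Of 134 values of the 9 genes under alternative settings, 116 kept their direction and side of the threshold, 5 lost a call, 4 gained one and 9 changed sign. Timp1 was called in all 15 alternatives (log2 fold change 2.53 to 3.74, adjusted p up to 0.0243, edgeR and DESeq2) and Mmp7 in all 14 in which it was tested. Mmp7 entered the filtered fits only through its Pkd1 KO reads and could only come out higher. Its tally is thus no separate support. The count of members called higher was 1 to 2 when 1 library was left out, with 1 without Pkd1 KO 3. The count called lower was 2 by DESeq2 and 2 without a count filter, both by adding Mmp2, and 0 with the offsets. It was 0 to 3 when 1 library was left out. It was 0 without control 1, Pkd1 KO 1 or Pkd1 KO 2 (1 each at an unadjusted p under 0.05, edgeR) and 3 without control 3, where 54.5% of all genes were called. Of the list genes, 28 were higher and 9 lower with the offsets, and leaving out 1 library gave 13 to 21 higher and 19 to 48 lower. Pkd1 was −0.34 (adjusted p = 0.0644, edgeR) with the offsets and −2.09 to −1.57 with 1 library left out. With upper-quartile scaling the astacin and meprin list had 1 higher and 0 lower (2 lower at an unadjusted p under 0.05, edgeR). Sign changes were found in genes with no call. Timp2 was 0.02 with the offsets. Timp3 was 0.03 with upper-quartile scaling (which moved the median of all genes to 0.19), 0.16 with the offsets and 0.09 with the summed strand columns. Plau was −0.002 without control 1 (−0.002 to 0.18 with 1 library left out) and −0.24 with the offsets. The cause of these changes was not tested.

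Equal replicate numbers do not mark a shared litter or batch in the labels. Deviations from the group means correlated at −0.0843 to 0.0383 between samples of the same number and at −0.0995 to 0.0973 between different numbers. With so few samples a group, these values cannot tell whether equal numbers share a litter or batch. With the replicate block, which called 40.5% of all genes, 2 members were higher and 1 lower, Mmp14 stood at −0.83 (adjusted p = 0.046), 17 list genes were higher and 38 lower, and Pkd1 was −1.79 (adjusted p = 0.00775, edgeR). With the replicate block and the offsets, 0 members were lower (0 also at an unadjusted p under 0.05), 11 list genes were lower, Pkd1 was −0.33 (adjusted p = 0.0928), Timp2 0.02, Timp3 0.16 and Plau −0.24 (edgeR).

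Depth limits Mmp7, Mmp9 and control Timp1, each at most 53 reads a library. It also limits Mmp2, at 47 to 175 reads a library. All 9 genes are limited by 3 libraries a group.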
